A study of Mus musculus with 4 samples.

Results

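The antibody constant region genes and the J chain gene were examined in kidney of mice with membranous nephropathy, a glomerular disease in which antibody is deposited along the capillary wall under the podocytes, and of control mice. The members were chosen by name: the heavy chain genes Ighg1, Ighg2b, Ighg2c, Ighg3, Ighm, Ighd, Igha and Ighe, the kappa light chain gene Igkc, and Jchain. Of these 10 genes, 9 had a probe on the array, with 11 probes among the 55681 on it. Ighd had 0 probes under that name. The mice were female BALB/C animals aged 6 weeks at the start, and both groups first received 0.2 mg of cBSA, a cationic bovine serum albumin, in complete Freund's adjuvant. From 2 weeks later, the MN group received 13 mg/kg cBSA intravenously 3 times a week for 6 weeks, and the control group received vehicle, given as saline in one label and as PBS in another. The control kidneys therefore also come from immunised mice. Each group had 2 Agilent one-colour arrays of kidney RNA. The labels do not say that the arrays of a group came from separate animals, so the p-values measure only the spread between these samples, which may be technical.

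An antibody is made of heavy and light chains. Its constant region sets the class: mu (IgM) comes first on the chromosome and is used first, and class switch recombination brings a downstream gene (gamma, epsilon or alpha) behind the same variable region. Plasma cells secrete most antibody, and the J chain joins IgM and IgA units into polymers. BALB/c mice carry Ighg2a in place of the Ighg2c of C57BL/6 mice. T helper type 2 responses favour IgG1 and IgE in the mouse, and interferon gamma favours IgG2a or IgG2c.

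Each probe is a 60-base DNA sequence with the strand of the transcript, and the probe sequences show which stretch of each constant region was measured. Positions are those of the array files, on mouse build mm9. The heavy chain probes lie on the minus strand of chromosome 12 over 163 kb and the Igkc probe lies on the plus strand of chromosome 6. Both Ighg1 probes read coding sequence, the one called Ighg1 (1) at chr12:114567263-114567322 in the third constant domain and Ighg1 (2) at chr12:114568594-114568653 in the first. The Ighg3 probe at chr12:114597942-114598001 reads the matching stretch of the third domain. Capitals in these 2 sequences mark the 13-base run they share, the longest between any pair of the probes compared.
Ighg1 (1): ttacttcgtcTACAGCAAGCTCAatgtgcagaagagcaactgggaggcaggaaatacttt
Ighg3: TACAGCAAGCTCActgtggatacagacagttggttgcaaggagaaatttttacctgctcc
Ighg1 (2): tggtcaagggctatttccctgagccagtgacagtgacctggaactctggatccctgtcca

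Further sequences are shown for the light chain and for the heavy chains whose values are set beside Ighg1. The Igkc probe at chr6:70676692-70676751 and the Ighg2c probe at chr12:114523536-114523595 each end at a stop codon, set in capitals. The Ighg2c probe reads the end of the membrane-anchored form. Igha (1) at chr12:114496985-114497044 reads the secretory tailpiece of alpha. Ighg2b lies at chr12:114544738-114544797, and Ighm, printed on the array in 10 spots, at chr12:114659630-114659689.
Igkc: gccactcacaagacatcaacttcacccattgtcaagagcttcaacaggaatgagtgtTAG
Ighg2c: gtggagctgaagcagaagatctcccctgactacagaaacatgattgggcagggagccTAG
Igha (1): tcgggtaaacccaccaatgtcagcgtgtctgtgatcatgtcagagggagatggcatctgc
Ighg2b: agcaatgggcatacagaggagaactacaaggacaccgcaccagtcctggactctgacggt
Ighm: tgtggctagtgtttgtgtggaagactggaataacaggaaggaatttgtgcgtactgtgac

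Levels are on a log2 scale on which 0 is the array's 75th percentile signal, and a difference is the MN mean minus the control mean. Between 63.1% and 79.5% of spots were well above background on an array, and 0 spots were saturated. Replicate 1 of both groups was on slide 1 and replicate 2 of both on slide 2, so each slide gives a difference of its own. Every array measured all 13 kidney genes checked (podocyte, tubule and other kidney markers) well above background. The number of arrays limits the precision, and so does the background for dim probes.

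Ighg1, Igkc and Jchain had the largest differences among the constant region and J chain genes, all with higher values in MN kidney, while the Ighm values of the groups overlapped. Of the 9 probes that could be tested, 0 passed an adjusted p of 0.05 by limma with Benjamini-Hochberg adjustment over 36269 probes, against 0.0193% of all tested probes (7 probes) called higher and 0 called lower. At an unadjusted p under 0.05, 7 of the 9 were higher in MN, against 3.45% of all probes, and 0 were lower, against 3.53%. The 7 include both Ighg1 probes, which passed the filter on dim probes only through the MN arrays. Their direction was thus nearly set in advance, and no result is drawn from the 7 of 9. Counts at that p, sizes and overlaps were therefore taken over the 6 probes well above background on all 4 arrays (Igkc, Jchain, Ighg2b, Ighm and both Igha probes). This restriction was chosen after values were seen. Of these 6, 5 were higher at an unadjusted p under 0.05, against 3.69% of the 32626 probes measured that way, and 0 were lower, against 2.74%. Both MN arrays lay above both control arrays for 5 of the 6, against 13.5%, and below both for 0 of the 6, against 18.7%. A difference of 1 or more was seen for 3 of the 6 (Igkc, Jchain and Ighg2b), against 0.711%, and of 3 or more for Igkc and Jchain, against 0.0337%. The median difference was 1.05 for these 6 probes and -0.05 for all probes measured that way. In whole tissue, more antibody-producing cells and more RNA per cell cannot be told apart.

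**Figure D1:**
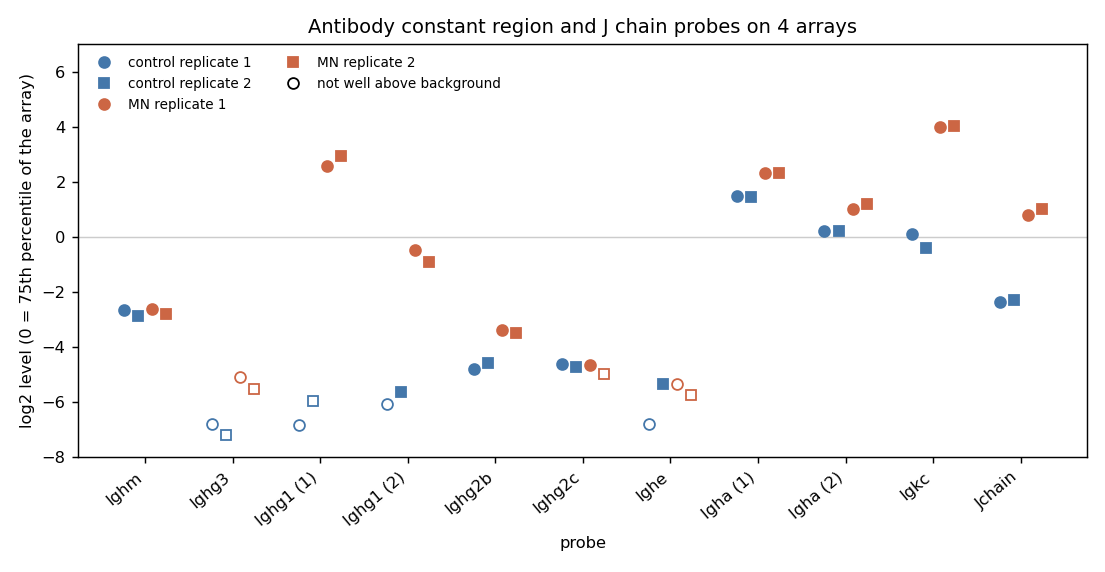
The log2 level of each constant region and J chain probe on each of the 4 arrays, where 0 is the array's 75th percentile; blue is control, orange is MN, circles are replicate 1 and squares replicate 2, and open markers are not well above background. The control points of Ighg1 (1) lie at -6.85 and -5.98 and its MN points at 2.58 and 2.93, while the Ighm points of both groups lie between -2.86 and -2.63.

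Among the heavy chains, Ighg1, which encodes the gamma 1 chain of IgG1, stood furthest apart. For Ighg1 (1), the control arrays had levels of -6.85 and -5.98, and the MN arrays 2.58 and 2.93. The processed signals behind these values were 6.39 and 12.9 in control and 4573 and 9206 in MN. Both control signals failed the background test, and both MN signals were bright. MN was at least 316-fold higher, a log2 difference of at least 8.30. For this bound, each control array was set at the higher of the probe's own signal and the lowest signal of any probe well above background. With the 5th percentile of signals well above background in place of the lowest, the bound was 224-fold. The adjusted p of 0.0546 by limma belongs to the difference of the measured means and not to the bound. The measured means were -6.42 ± 0.61 (SD, n = 2) in control and 2.76 ± 0.25 (SD, n = 2) in MN. With the lowest signal as the floor, the log2 bound was 7.69 on slide 1 and 8.92 on slide 2. Blocking on the slide gave an adjusted p of 0.0919 by limma. With normexp background correction, whose offset of 50 shrinks differences from dim signals, the fitted difference was 6.12, which is no bound, and passed the threshold (adjusted p = 0.00701). The adjusted p ranged from 0.00701 to 0.375 over the alternatives.

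The second Ighg1 probe gave the same direction at a smaller size. Its level was -6.10 and -5.63 in control and -0.49 and -0.94 in MN, and the groups did not overlap. The difference was 5.15 ± 0.27 (SE; adjusted p = 0.0768 by limma, and 0.177 with the slide as a block). Only 1 of the 2 control arrays measured it well above background, so its size rests partly on a dim signal, and with normexp it was 2.63. The slides gave 5.61 and 4.69. The array files list a gamma 2C transcript as well as gamma 1 for this probe, so the gene behind its signal is uncertain. Across the alternatives its adjusted p ranged from 0.0311 to 0.382.

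Igkc encodes the constant region of the kappa light chain, which most mouse antibodies carry whatever their heavy chain class. Its level was 0.10 and -0.41 in control and 3.97 and 4.01 in MN. All 4 arrays measured it well above background, and both MN arrays lay far above both controls. The difference was 4.14 ± 0.23 (SE), or 17.7-fold, with a 95% interval of 3.52 to 4.77 (adjusted p = 0.0768 by limma). It was 3.87 on slide 1, 4.42 on slide 2 and 4.03 with normexp. The adjusted p was 0.161 with the slide as a block and ranged from 0.0287 to 0.498 over the alternatives.

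The lambda light chains are used by a minority of mouse antibodies. Iglc2 had a pair of probes, both well above background on all 4 arrays. The first was at -2.33 and -2.16 in control and -1.16 and -1.11 in MN. Its difference was 1.11 ± 0.15 (SE) and did not pass the test (adjusted p = 0.374 by limma). The second probe gave 1.24 ± 0.15 (SE). The MN and control arrays did not overlap for Iglc2.

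Jchain encodes the joining chain made by antibody-secreting cells, including cells that secrete IgG. Its probe lies at chr5:88949919-88949978 on the minus strand. The level was -2.36 and -2.31 in control and 0.78 and 1.0 in MN, and the groups were well separated. The difference was 3.23 ± 0.16 (SE), or 9.35-fold, with a 95% interval of 2.78 to 3.67 (adjusted p = 0.0768 by limma). The slides gave 3.14 and 3.31, and normexp gave 2.86. The adjusted p was 0.134 with the slide as a block and ranged from 0.0292 to 0.498 over the alternatives.

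**Figure D2:**
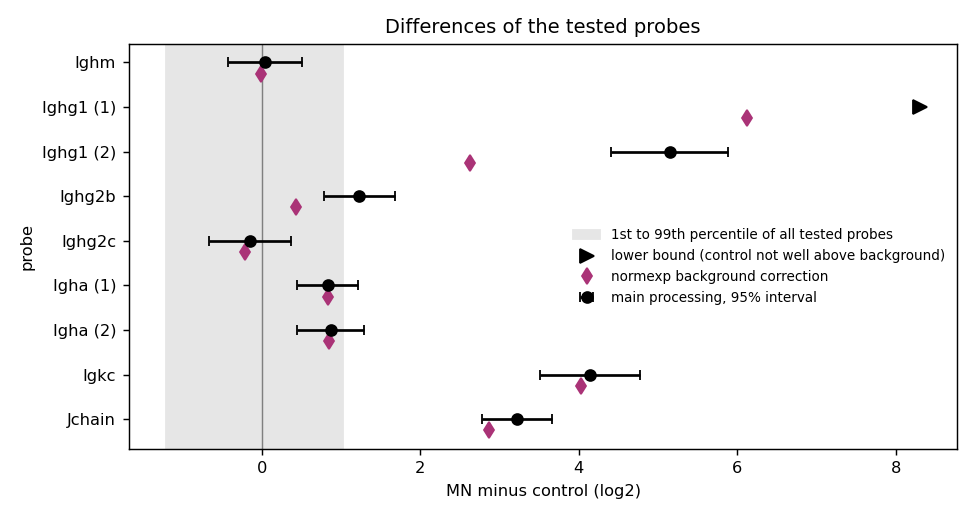
The MN minus control difference on the log2 scale of each of the 9 tested probes, with its 95% interval from the limma fit; the triangle of Ighg1 (1) is a lower bound, diamonds give the fitted value with normexp background correction, and the grey band runs from the 1st to the 99th percentile of all tested probes, -1.20 to 1.03. Ighg1, Igkc, Jchain and Ighg2b lie to the right of the band, Igha and Ighm lie within it, and the diamonds of Ighg2b and both Ighg1 probes lie well below their main values.

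Ighg2b, the gamma 2b chain gene, was low on all 4 arrays. Its level was -4.79 and -4.59 in control and -3.40 and -3.51 in MN, with no overlap. The difference was 1.23 ± 0.16 (SE), or 2.35-fold, and did not pass the test (adjusted p = 0.365 by limma). It was 1.39 on slide 1 and 1.08 on slide 2. With normexp it was 0.44, so its size rests on the background correction.

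Igha, the alpha chain gene of IgA, was above the 75th percentile on all 4 arrays. The files name its probes Igh-VJ558 and describe them as the alpha constant region. Igha (1) was at 1.48 and 1.45 in control and 2.30 on both MN arrays. Its difference was 0.84 ± 0.14 (SE), or 1.79-fold, and Igha (2), at chr12:114497090-114497149, differed by 0.87 ± 0.15 (SE). Both probes were higher on both MN arrays, and neither passed the test (adjusted p = 0.413 and 0.439 by limma). The slides gave 0.82 and 0.85 for Igha (1) and 0.77 and 0.97 for Igha (2).

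Ighm, the mu chain gene of IgM, did not separate the groups. Its level was -2.66 and -2.86 in control and -2.63 and -2.81 in MN. The difference was 0.04 ± 0.17 (SE), with a 95% interval of -0.42 to 0.50. The slides gave 0.02 and 0.06, and the sign changed between processing settings.

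The Ighg2c probe, which reads only the membrane-anchored form, did not separate the groups either. Its level was -4.63 and -4.75 in control and -4.66 and -5.0 in MN, and the second MN array was not well above background. The difference was -0.14 ± 0.19 (SE), with a 95% interval of -0.66 to 0.38. It was -0.03 on slide 1 and -0.26 on slide 2. The sign turned under quantile normalization and without the second MN array. The pair of probes beside it that are listed as IgG2a, described below, may read the same gene. They differed by 2.20 and 0.56 without passing the test.

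Ighg3 and Ighe were not tested. The Ighg3 probe was not well above background on any array, with readings of -6.82 and -7.22 in control and -5.11 and -5.53 in MN. The Ighe probe, for the epsilon chain of IgE at chr12:114509504-114509563, was well above background on the second control array alone, and read -6.79 and -5.34 in control and -5.35 and -5.74 in MN. A pair of further probes was named Ighm and Igkc in the annotation of slide 1 but otherwise in that of slide 2. They were well above background on 0 and 1 arrays and were not tested.

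Other probes in the heavy chain region, chosen by position after values had been seen, include a pair listed as IgG2a. They lie beside the Ighg2c probe on this build, on the same strand and before the membrane-anchored end that it reads. The label IgG2a therefore does not show that they read a gene other than Ighg2c. Which gene they read in BALB/c mice was not tested. The one at chr12:114525496-114525555 was at -3.82 and -3.77 in control and -1.95 and -1.25 in MN. Its difference was 2.20 ± 0.28 (SE), or 4.59-fold, without passing the test (adjusted p = 0.365 by limma). The slides gave 1.87 and 2.53, and normexp gave 1.46. The probe at chr12:114525600-114525659, whose sequence runs up to the stop codon of the secreted form, differed by 0.56 ± 0.24 (SE), with -2.80 and -2.58 in control and -2.38 and -1.87 in MN. The 2 probes thus had the same direction and different sizes.
IgG2a, stop codon in capitals: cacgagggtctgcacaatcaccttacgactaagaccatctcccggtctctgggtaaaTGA

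For delta, the class of the named gene without a probe, the region holds a probe listed as the membrane form of IgD at chr12:114654277-114654336. Its level was -1.77 and -3.59 in control and -3.64 and -3.78 in MN. The difference was -1.03 ± 0.65 (SE), which did not pass the test (adjusted p = 0.936 by limma), and it was -1.87 on slide 1 and -0.19 on slide 2. The value rests on the first control array: without it, the difference was -0.12.

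**Figure D3:**
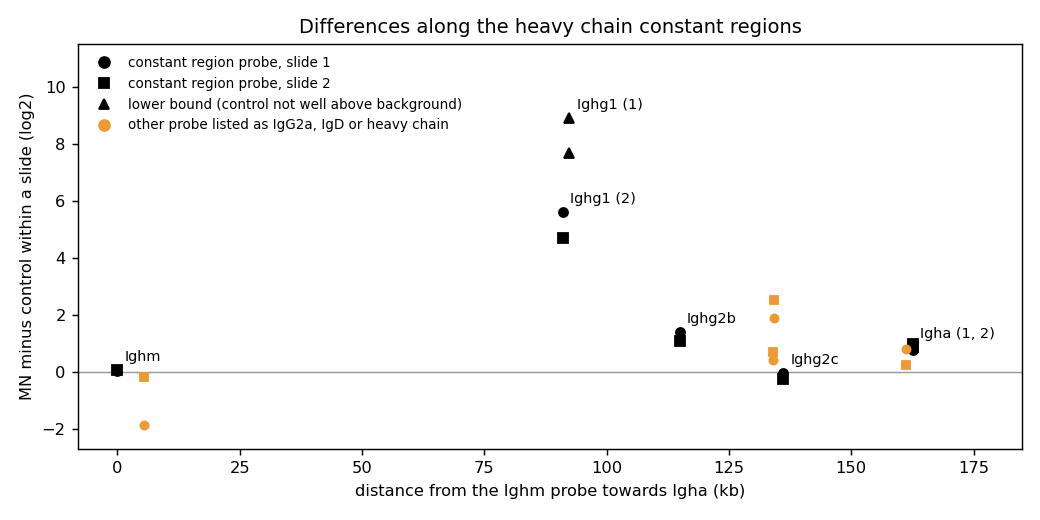
The MN minus control difference within slide 1 (circles) and slide 2 (squares), on the log2 scale, against the distance in kb from the Ighm probe towards Igha; triangles are lower bounds for each slide, black marks tested constant region probes, and orange marks other probes listed as IgG2a, IgD or heavy chain. Ighg1 (2) at 91.0 kb lies at 5.61 and 4.69, the bounds of Ighg1 (1) at 92.4 kb lie at 7.69 and 8.92, and the Ighm probe at 0 kb lies at 0.02 and 0.06.

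The differences of 5 genes with a probe well above background on all 4 arrays (Igkc, Jchain, Ighg2b, Ighm and Igha by its first probe) were compared in 10 pairs. Each comparison used the difference between 2 probes within an array, and its SE does not take the slide into account. The Igkc difference exceeded that of Jchain by 0.92 ± 0.29 (SE), with 0.73 on slide 1 and 1.1 on slide 2. Jchain exceeded Igha by 2.39 ± 0.12 (SE) and Ighm by 3.18 ± 0.24 (SE). Igha exceeded Ighm by 0.80 ± 0.12 (SE), and Ighg2b exceeded Igha by 0.40 ± 0.13 (SE), which turned to -0.41 with normexp. Each exact permutation test of 2 against 2 arrays gave p = 0.333, two-sided, the smallest this design allows, and the value adjusted over the 10 pairs was also 0.333.

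Among 32626 probes well above background on all 4 arrays, likeness to Jchain was measured as the distance between the 4 log2 values centred on the control mean. The nearest gene was Igkv3-7, a kappa variable region gene, at 0.15, with a difference of 3.19 beside 3.23 for Jchain. It was followed by Car3, a carbonic anhydrase abundant in fat and muscle, at 0.36, then Mup19, a major urinary protein gene, at 0.46, R3hdml at 0.47 and Rspo1, a Wnt pathway ligand, at 0.91. For Igkc, the nearest were Slpi, a secreted protease inhibitor, at 0.45, Car3 at 1.01, Igkv3-4 at 1.14, Jchain at 1.36 and Igkv3-7 at 1.43. These distances describe 4 arrays and carry no test.

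Genes of the cells that make antibody were read from separate lists, by their counts and medians. In the B cell list, 14 of 15 genes were tested, 6 had higher and 8 lower values in MN, and 0 passed by limma (at an unadjusted p under 0.05, 0 were higher and 2 lower). The median was -0.07. Ms4a1, the B cell surface protein CD20, was at -3.75 and -3.63 in control and -4.38 and -4.20 in MN, a difference of -0.60 ± 0.16 (SE). Fcmr, the Fc receptor for IgM, differed by -0.79, Bank1, a B cell signalling scaffold, by -0.60 and Cd79a, part of the B cell receptor, by -0.09. Bank1 was well above background on 3 arrays, and its groups overlapped. Among the genes with higher values, the largest differences were 0.46 for Spib and 0.33 for Cd72, both named after their values were seen. The summed level of the list was 17.0 to 17.1 times the 75th percentile in control and 16.4 to 17.8 in MN. Blnk, named after its values were seen, was by far the brightest gene of the list and makes up most of this sum. Its level was 3.58 and 3.57 in control and 3.75 and 3.49 in MN. The sum therefore says little about the dimmer genes.

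In the list of plasma cell and antibody secretion genes, 14 of 18 tested genes had higher values and 4 lower, and 0 passed by limma (at an unadjusted p under 0.05, 2 were higher and 0 lower). The median was 0.11, and the summed level was 189 to 201 in control and 236 to 239 in MN. Of that sum, 92.5% to 94.0% came from 6 genes picked after their values were seen, Hspa5, Hsp90b1, Xbp1, Ssr4, Creld2 and Eaf2, most of them endoplasmic reticulum genes that many cell types use. The rest of the list summed to 12.7 to 15.1 in control and 14.4 to 16.0 in MN, so the groups overlapped. Derl3, which acts in disposal of misfolded proteins from the endoplasmic reticulum, was at -1.58 and -1.64 in control and -0.39 and -0.45 in MN, a difference of 1.19 ± 0.14 (SE; adjusted p = 0.34 by limma). Mzb1, a chaperone of antibody assembly, differed by 0.82 ± 0.35 (SE) and Creld2, an endoplasmic reticulum stress gene, by 0.66. Of the plasma cell regulators, Prdm1 differed by 0.08 ± 0.28 (SE), Xbp1 by 0.18 ± 0.16 (SE) and Irf4 by -0.33 ± 0.32 (SE). The groups overlapped for Prdm1 and Irf4, and Irf4 was well above background on 3 arrays. Sdc1, which encodes the plasma cell marker CD138 and is also made by epithelial cells, differed by -0.42. Tnfrsf17, the receptor BCMA of plasma cells, was not well above background on any array.

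The list for class switching and somatic mutation was split evenly, with 6 genes higher and 6 lower in MN, a median of -0.02 and 0 passing by limma (1 each way at an unadjusted p under 0.05). Exo1, an exonuclease, differed by 1.20, and by 0.55 with normexp. Ung, the uracil glycosylase, differed by -0.82. Trp53bp1, a break repair factor, differed by 0.32 at its brightest probe and by 0.04 at another. Of the switch cytokines and receptors, 7 were tested, 2 with higher and 5 with lower values, and 0 passed by limma (0 at an unadjusted p under 0.05). Both MN signals of Ifng, the interferon gamma gene, failed the background test. Its control levels of -4.48 and -4.79 were dim as well, and control was at least 1.21-fold higher. The measured difference of Ifng did not pass (adjusted p = 0.856 by limma). Il4, the cytokine that favours IgG1 and IgE, was too dim to test, and Tnfsf13b, the B cell survival factor BAFF, differed by 0.27.

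Among antibody transport and Fc receptor genes, 7 of 10 had higher and 3 lower values, the median was 0.09, and 0 passed by limma (0 at an unadjusted p under 0.05). Pigr, which carries polymeric IgA across epithelium, differed by 0.16 ± 0.72 (SE). Fcgr2b, the inhibitory IgG receptor, differed by -0.02, Fcamr by -0.53 and Fcgr4 by 0.21. Fcgrt, the neonatal Fc receptor that recycles IgG, was at 3.52 and 3.75 in control and 3.61 and 3.66 in MN.

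Markers of tissue other than kidney were set beside these values. In the adipose list, 7 of 9 tested genes had higher values, and the median was 0.78. By limma, 2 were called higher, against 0.0193% of all tested probes (at an unadjusted p under 0.05, 6 were higher and 0 lower). Over the 5 genes well above background on all 4 arrays, the median was 0.40. The called genes were Cfd, the adipocyte protease adipsin, with a difference of 6.93 (5.08 with normexp) and only 1 of 2 control arrays well above background, and Adipoq, the adipocyte hormone adiponectin, at least 20.6-fold higher (adjusted p = 0.0474 for both), and with the slide as a block 0 probes of the whole array were called. Retn, the adipocyte hormone resistin, was at least 23.2-fold higher and did not pass (adjusted p = 0.345 by limma). For Adipoq and Retn, the adjusted p belongs to the measured difference and not to the bound. Cfd, Adipoq and Retn passed the filter on dim probes only through the MN arrays. The other tested genes of the list, named after their values were seen, were Cidec, Thrsp, Plin1, Fabp4, Lep and Plin4. Cidec differed by 2.59 at its brightest probe and by 0.27 at another, Thrsp by 0.78 and Plin1 by 0.40. Fabp4, a fatty acid carrier, lay at -0.10, Lep, the leptin gene, at -0.02 and Plin4, a lipid droplet protein, at 0.11. Lep was dim, with 3 arrays well above background. The summed adipose level was 19.5 to 21.9 in control and 24.7 to 25 in MN. Fabp4 made up 90.0% to 90.6% of that sum in control and 68.4% to 72.0% in MN. The erythroid list had 7 of 9 higher and a median of 0.33, with 0 called by limma (at an unadjusted p under 0.05, 2 were higher and 1 lower). Its summed level was 499 to 664 in control and 533 to 683 in MN, and Hbb-b1, a beta globin gene, differed by 0.33. Ahsp, the alpha globin chaperone, differed by 1.38 (0.74 with normexp), Alas2, the erythroid enzyme of haem synthesis, by 0.78 and Hemgn, an erythroid nuclear protein, by -0.96. In the lymph node list, 2 of 6 tested genes had higher and 4 lower values, with 0 called by limma (1 higher at an unadjusted p under 0.05). Cxcl13, the chemokine that draws B cells into follicles, differed by 1.01 ± 0.19 (SE), and by 0.35 with normexp. Glycam1, which marks lymph node vessels, was not well above background on any array, and the summed level of the list was 1.35 to 1.42 in control and 1.26 to 1.41 in MN. In the T and NK cell list, 1 of 10 had a higher value, with 0 called by limma (0 at an unadjusted p under 0.05), and Cd3e, part of the T cell receptor, differed by -0.17. The part of these tissues and cells in the antibody gene differences was not tested.

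**Figure D4:**
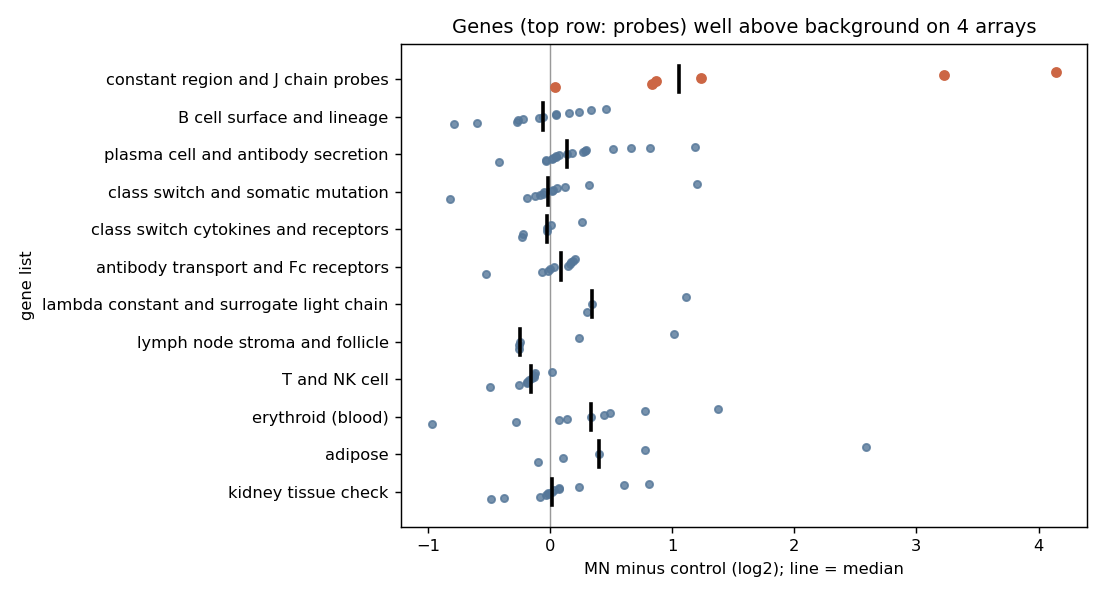
The MN minus control difference on the log2 scale of each gene of the related lists and each constant region and J chain probe that was well above background on all 4 arrays, 1 point each, with a line at the median of each row. The 6 constant region and J chain probes have a median of 1.05, and the 13 B cell genes a median of -0.06.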

How the data were processed

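The deposited files are the scanner output of 4 Agilent one-colour arrays; per the file headers, Feature Extraction 10.5.1.1 made the processed signal intensity, and the slides carry different annotation versions (that of slide 2 was used). From them, log2 signal minus the array's 75th percentile was computed, leaving out control spots and spots flagged as outliers and averaging spots of a probe. A probe was tested if well above background on both arrays of a group. Tests were two-sided with limma 3.58.1 (R 4.3.3, adjusted p under 0.05); the prior degrees of freedom were 2.06. The deposited log2 value table served as an alternative, and how it was made is not given in the sources used; its scale and centring were found against the scanner values (column medians 0.0262, -0.0262, -0.0326 and -0.0442), and its columns for replicates 1 and 2 match the other replicate's scanner values in both groups. Same-numbered arrays shared a slide per the file headers, and their deviations correlated at r = 0.59 over 36259 probes.

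Probes were named from accessions or symbols in RefSeq (assembly GRCm38.p6), with 28026 of 55681 probes named by accession, and antibody genes from the files' descriptions. The members and lists were chosen with earlier results of these data known. Besides every member, the text names set defining genes of each list and up to 3 genes a list with the largest difference, and the 5 genes nearest to Jchain and Igkc, leaving out predicted genes; some of these genes are not reported here. In simulated data for this comparison with 200 of 36259 probes changed, the test recovered 0% of probes given a log2 change of 1, 7.6% of those given 2, 76.8% given 4 and 89.2% given 6. The simulated noise was independent between arrays and did not depend on the level. It lacked the deviations that arrays of a slide share in the data, so recovery of real changes may differ. Alternatives covered background correction, scaling, filters, the slide block, the variance model, 1 probe per gene and leaving out each array.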

Additional observations from a re-analysis of the deposited data

How the results depend on the processing

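The number of probes called higher in MN over the whole array was 7; it was 21 with normexp, 28 with quantile normalization, 12 with median scaling, 18 with a variance trend, 27 at a threshold of 0.1 (with 1 lower), 0 without the filter on dim probes (at an unadjusted p under 0.05, 1000 were higher and 1567 lower), 0 when all 4 arrays had to be well above background (1204 and 893), and 0 to 0 when each array was left out in turn (596 to 1199 higher and 722 to 1546 lower by the same measure). With the replicate block, which is the slide, 0 were called by limma (at an unadjusted p under 0.05, 2174 were higher and 3245 lower). Of the 9 tested constant region and J chain probes, 3 passed with normexp, 4 with quantile normalization, 4 with a variance trend, 1 with median scaling and 1 with the deposited table. The whole-array counts called higher in these settings were 21, 28, 18, 12 and 8, each of 36269 probes. Ighg1 (1), which passed the filter only through the MN arrays, was among them each time. It was the only one with median scaling and with the deposited table. When all 4 arrays had to be well above background, 0 of 6 passed. The cause was not tested. Ighm (main value 0.04) turned to -0.0057 with normexp, -0.063 without control replicate 2 and -0.045 without MN replicate 1, with a range of -0.063 to 0.145 when each array was left out. Ighg2c (-0.14) turned to 0.049 with quantile normalization and 0.028 without MN replicate 2, with a range of -0.314 to 0.028. Ighg2b against Igha (0.40) turned to -0.41 with normexp. Dim control signal limits Ighg1 and Ighg2b, and dim signal in both groups limits Ighg3 and Ighe.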

Other observations

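Within the heavy chain region, 4 more probes without a gene name were well above background on all 4 arrays. Their differences between MN and control were -0.24, 0.25, -0.28 and -0.09 on the log2 scale, and none passed the test by limma. A probe listed as heavy chain complex, near the alpha gene, was at -4.41 and -3.92 in control and -3.61 and -3.70 in MN, and its difference was 0.81 on slide 1 and 0.23 on slide 2.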
